A study of Mus musculus with 24 samples.

Results

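Ionotropic and metabotropic receptors for GABA, glutamate, glycine and acetylcholine were followed in dorsal root ganglia (DRGs) after a lesion of the sciatic nerve. The genes were chosen by name: all names on the array that start with Gabr, Gabbr, Gria, Grin1, Grin2, Grin3, Grik, Glra, Chrn or Grm, with a digit required after Gria and Grm. This gave 64 genes on 120 probes, of 27398 gene names on 41174 probes in all. Of the 64 genes, 18 encode GABA-A subunits, 2 GABA-B subunits, 4 AMPA, 5 kainate and 7 NMDA subunits, 8 metabotropic glutamate receptors, 4 glycine receptor alpha subunits and 16 nicotinic subunits.

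The RNA came from L4 and L5 DRGs of adult male C57BL/6J mice, either Nfil3 knockout (KO) mice or their wildtype (WT) littermates. In KO mice the gene for the transcriptional repressor NFIL3 was deleted throughout the body, by crossing mice with a loxP-flanked Nfil3 gene to a Cre line active in germ cells. All mice had the sciatic nerve of 1 leg cut and sutured end to end, DRGs of the lesioned side were taken at day 2 or day 5, and DRGs of the non-injured side served as control. There were 6 groups of 4 samples (WT and KO, each as control, day 2 and day 5), and the labels do not tie a control to the lesioned DRG of the same animal.

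Receptors of these families are assembled from several subunits, and the choice of subunits sets their kinetics, ion selectivity and pharmacology. Sensory neurons carry GABA-A receptors on their cell bodies and central terminals, where they mediate presynaptic inhibition in the spinal cord, and they use glutamate as their transmitter while carrying kainate, NMDA and metabotropic glutamate receptors themselves. GABA-A receptors are pentamers, most often of alpha, beta and gamma subunits, and neuronal nicotinic receptors are pentamers of alpha subunits alone or with beta subunits.

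Values are log2 intensities after normalization, so a difference of 1 is a doubling, and differences are given with their standard error (SE). Where no genotype is given, a difference is the mean of those in the 2 genotypes, and adjusted p-values come from limma with Benjamini-Hochberg adjustment over all 41174 probes. Each gene is represented by its brightest probe, and levels of different genes are not compared, since probes differ in brightness. Between 54.5% and 72.3% of all probes were well above background in a sample. A gene was called detected where this held for its brightest probe in at least 12 of 24 samples, which was so for 43 of the 64 genes.

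Nfil3 was not evenly low in KO samples, and 1 library went against its labels. In KO control replicate 4 Nfil3 stood at 7.59, while it lay between 2.94 and 4.37 in the other KO controls and between 8.44 and 9.01 in WT controls, and 1 label field of this sample gives day 5 while its title gives control. It was kept as a control by its title, and the counts of receptor genes and of the partner and marker lists without it are given below. Among lesioned KO samples Nfil3 stood at 5.3 and 6.23 in day 2 replicates 1 and 4 and at 5.81 and 5.66 in day 5 replicates 1 and 3. Each of these shared an array with a lesioned WT sample. The other lesioned KO samples lay between 2.82 and 4.14, and lesioned WT samples between 10.34 and 11.09. The cause of this spread was not tested. The axotomy markers Atf3, Sprr1a, Gal, Npy, Sox11 and Gap43 were all higher at both days after lesion. The 4 controls that shared an array with a lesioned sample had Sprr1a between 8.15 and 11.68, against 5.48 to 6.12 in the other 4 controls, and the same counts without these 4 controls are given too. Over the 29 receptor genes called at either day these 4 controls were shifted toward the day 5 level for 14 genes, with a median absolute shift of 0.08. The shift of Chrna5 was 1.11. Since these genes were called with the 4 controls included, the count cannot show that these controls were unaffected.

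After lesion, receptor genes were more often lower than higher. At day 5, 23 of 64 genes were lower than in control DRGs (35.9%, where 13% of all genes were lower) and 5 were higher (7.81%, where 10.2% of all genes were higher). At day 2, 18 of 64 were lower (28.1%, against 12.7% of all genes) and 3 were higher (4.69%, against 9.48%). The median difference over the 64 genes was -0.23 at day 2 and -0.32 at day 5, while it was -0.02 and -0.03 over all genes. Of the 64 genes, 29 were called at either day and 20 of these at both. Of all 27398 genes, 7973 were called at either day and 4439 of these (16.2% of all genes) at both. Without KO control replicate 4 the 4 counts were 23 lower and 5 higher at day 5, and 18 lower and 3 higher at day 2. Without the 4 controls beside a lesioned sample they were 20 and 5, and 13 and 3. The count of genes higher at day 2 was 5 without KO day 2 replicate 3. In whole ganglia, fewer cells of a type and less RNA per cell cannot be told apart.

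**Figure D1:**
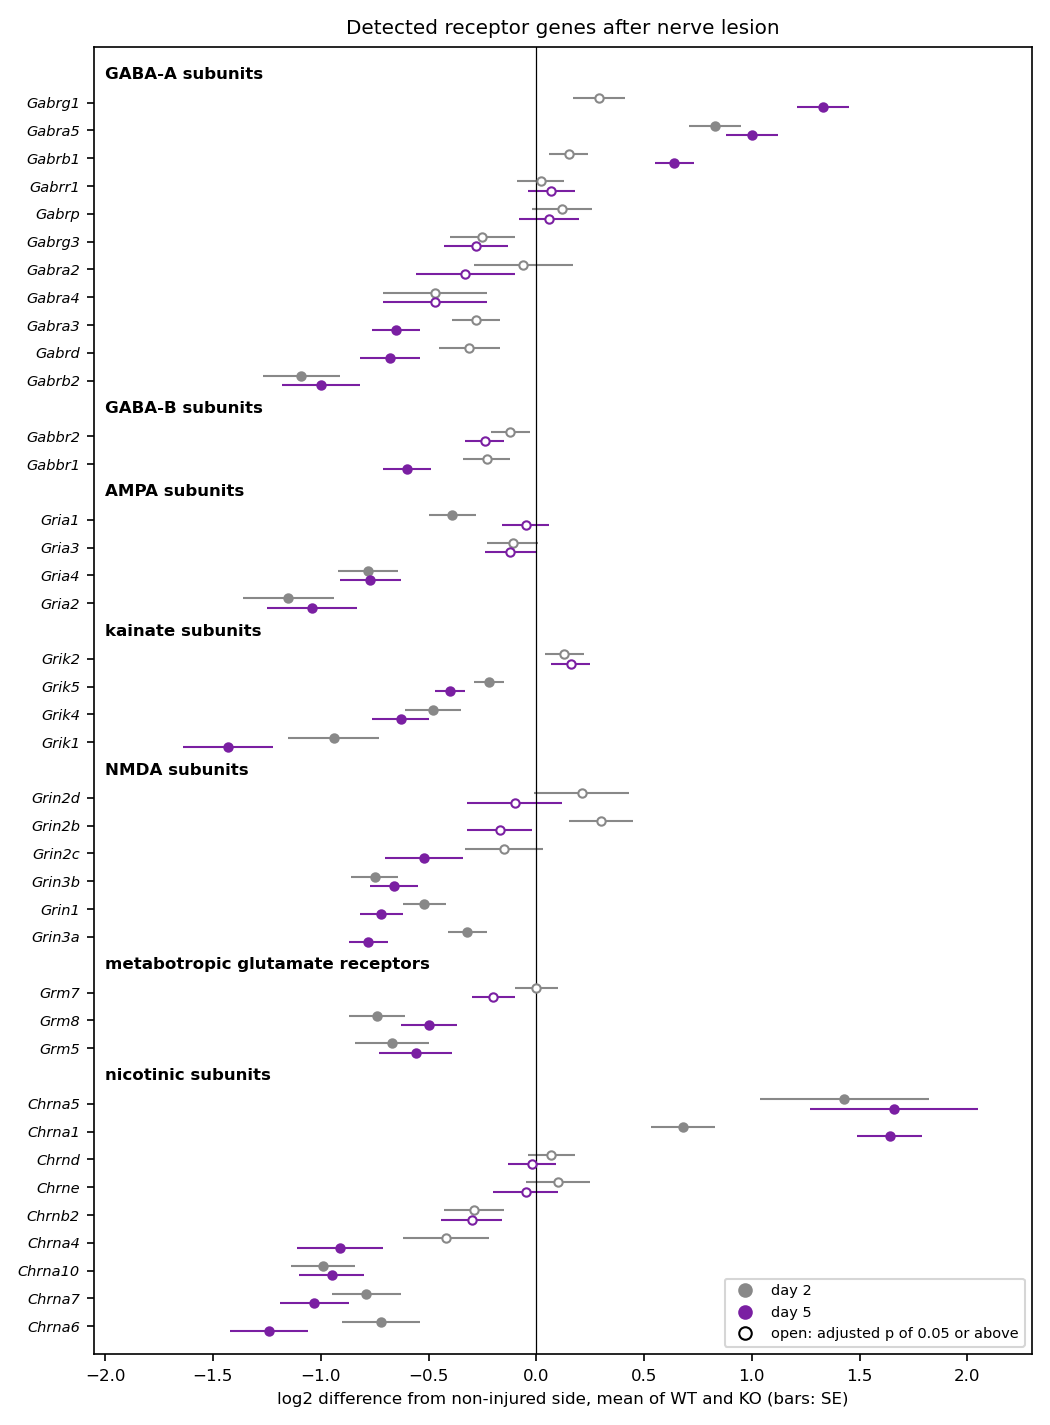
Log2 difference from the non-injured side (horizontal axis, mean of WT and KO) for 39 of the 43 detected genes, grouped by family, at day 2 (grey) and day 5 (purple). Bars are SE and filled points have an adjusted p under 0.05. Chrna5, Chrna1, Gabrg1, Gabra5 and Gabrb1 lie to the right of 0 at day 5, and filled points on the left are spread over all 7 families shown.

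Of the 5 genes that rose at day 5, 3 encode GABA-A subunits (3 of 18 GABA-A genes, where 10.2% of all genes were higher). The counts of single families, here and below, are small and were not tested. Gabrg1 (gamma-1), Gabra5 (alpha-5, known from extrasynaptic receptors) and Gabrb1 (beta-1) were higher at day 5, and Gabra5 was the only one of the 18 GABA-A genes that was higher at day 2 as well. The arrays read these genes, and the 2 nicotinic genes that rose, through probes of 60 bases. The middle 30 bases of each probe (bases 16 to 45) are given because they define what was measured:
Gabrg1: aggtgttagggagtttagaggttttcaatt
Gabra5: tccagtacgaattgcctttaacaattcttc
Gabrb1: ccccacagattcccaacagcggtaactgct
Chrna1: tccttgaatcctttcacacttaccaaacat
Chrna5: gaagattggaaattcatagcccaagttctc
In the array's annotation on mm9 the Gabrg1 probe lies at chr5:71143181-71143240, the Gabra5 probe at chr7:64663486-64663545, the Gabrb1 probe at chr5:72528086-72528145 and the Chrna1 probe at chr2:73404112-73404171. The 60 bases of the Chrna5 probe are split over chr9:54852958-54854271.

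In WT controls Gabrg1 stood at 9.09, 9.21, 9.13 and 8.5, at day 2 at 9.43, 9.83, 9.37 and 9.15, and at day 5 at 10.14, 10.44, 10.32 and 10.34. In KO it stood at 9.43, 8.99, 9.04 and 9.08 in controls, at 9.35, 9.26, 8.86 and 9.57 at day 2, and at 10.57, 10.27, 10.37 and 10.64 at day 5. All 8 day 5 samples lay above every control and every day 2 sample. The difference from control was 1.33 ± 0.12 at day 5 (2.51-fold, adjusted p = 8.82e-08) and 0.29 ± 0.12 at day 2 (adjusted p = 0.104). The rise between the days was itself past the threshold (1.04 ± 0.12, adjusted p = 4.03e-05). On the 3 slides the day 5 difference was 1.16, 1.31 and 1.52. The gene has 1 other probe, which was well above background in no sample and gave -0.63 ± 0.63 at day 5, and with the mean of both probes the difference was 0.35 (adjusted p = 0.566).

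Gabra5 rose earlier. Its WT values were 6.05, 6.15, 5.45 and 5.24 in controls, 6.69, 6.93, 6.67 and 6.82 at day 2, and 6.86, 6.71, 7.06 and 6.66 at day 5. Its KO values were 6.43, 5.83, 5.91 and 5.96 in controls, 6.75, 6.71, 6.39 and 6.71 at day 2, and 7.1, 6.75, 6.93 and 6.98 at day 5. The day 5 samples of both genotypes lay above all controls, while at day 2 KO replicate 3 lay below the highest KO control. The difference was 0.83 ± 0.12 at day 2 (1.78-fold, adjusted p = 5.2e-05). By day 5 it was 1 ± 0.12 (adjusted p = 4.35e-06). Its second probe, also well above background in all 24 samples, gave 0.37 at day 2 (adjusted p = 0.0499), and by day 5 it was 0.62 ± 0.13 (adjusted p = 0.0012).

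Gabrb1 passed the threshold at day 5 but not at day 2 (0.15 ± 0.09, adjusted p = 0.249). Its 8 controls lay between 6.22 and 6.81, its day 2 samples between 6.27 and 6.75, and its day 5 samples between 6.7 and 7.36. The difference was 0.64 ± 0.09 at day 5 (1.56-fold, adjusted p = 1.61e-05), and day 5 exceeded day 2 by 0.49 ± 0.09 (adjusted p = 0.00268). The highest control was KO control replicate 3.

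**Figure D2:**
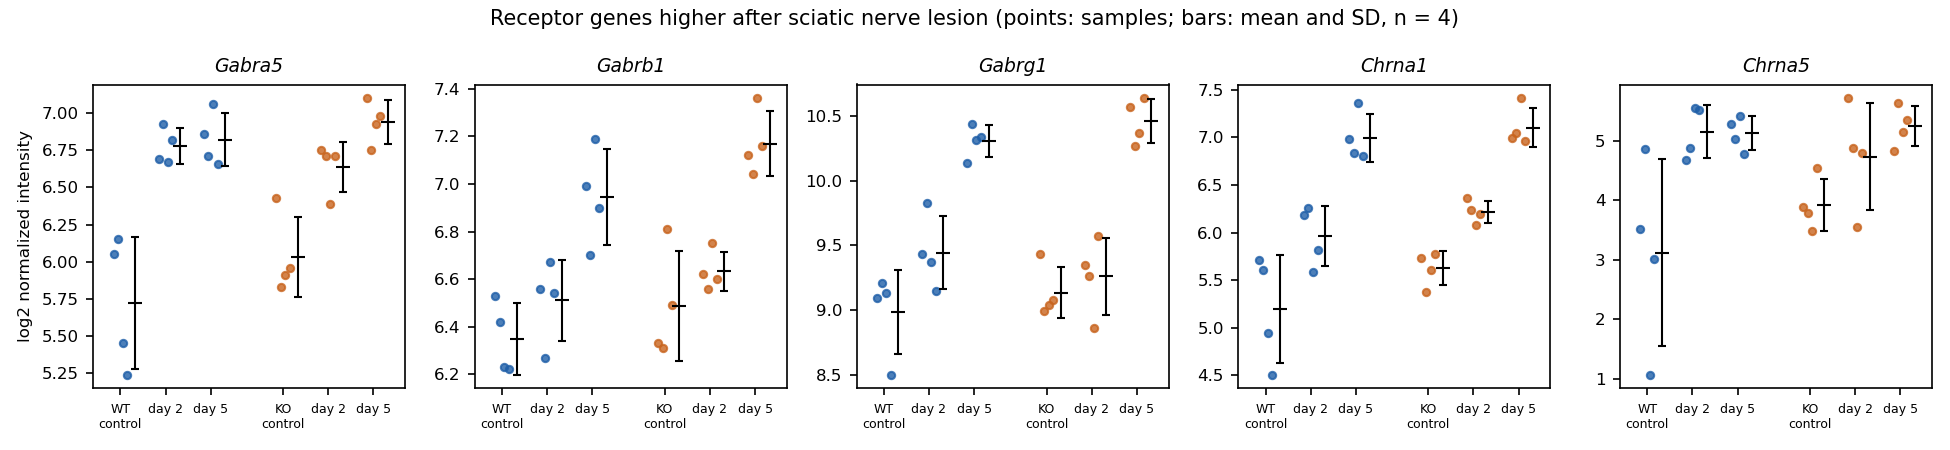
Log2 normalized intensity of the 5 genes that were higher at day 5, in each of the 24 samples (points, WT blue, KO orange), with the mean and SD of each group of 4 (black). Gabrg1 stays near its control level at day 2 and lies between 10.14 and 10.64 at day 5, while Gabra5 is higher at both days, and the vertical axes differ between panels.

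Of the 18 GABA-A genes 5 fell at day 5, where 13% of all genes were lower. Among them were Gabrb2 (beta-2, a common subunit of GABA-A receptors in the adult brain), Gabra3 (alpha-3) and Gabrd (delta, found in extrasynaptic receptors). Gabrb2 was read through a probe at chr11:42445782-42445841 on mm9, whose middle 30 bases are shown because its change was the largest of the 3:
Gabrb2: aacacacacatcatgctcactccccaatgg

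Gabrb2 stood at 8.3, 8.27, 7.85 and 7.59 in WT controls, at 7.13, 6.74, 6.79 and 7.24 at day 2 and at 7.02, 6.77, 7.12 and 6.58 at day 5. In KO it stood at 8.45, 7.87, 8.23 and 8.13 in controls, at 6.57, 7.49, 7.71 and 6.33 at day 2 and at 7.55, 7.08, 7.33 and 7.24 at day 5. Within each genotype lesioned samples and controls did not overlap at either day. The difference was -1.09 ± 0.18 at day 2 (adjusted p = 0.000148). By day 5 it was -1 ± 0.18 (adjusted p = 0.000271), and day 5 minus day 2 gave 0.09 ± 0.18 (adjusted p = 0.88). Its other 2 detected probes gave -1.35 and -0.94 at day 2 and -1.07 and -0.96 at day 5, each with an adjusted p under the threshold.

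Gabra3 fell by 0.65 on the log2 scale at day 5 (SE 0.11, adjusted p = 0.000152), from a control range of 7.09 to 7.41 to a range of 6.44 to 6.93. With the mean of its 3 probes, 1 of them well above background in no sample, it gave -0.14 (adjusted p = 0.928). That undetected probe read -16.36 in WT day 2 replicate 4, which enters the error of the mean. The other detected probe averaged 4.55 in WT controls and 4.01 in WT at day 5, and 4.35 and 4.3 in KO. Gabrd fell by 0.68 (SE 0.14, adjusted p = 0.00109). Neither passed the threshold at day 2, with -0.28 for Gabra3 and -0.31 for Gabrd. The other 6 detected GABA-A genes passed the threshold at neither day. Among these, Gabra2 gave -0.33 ± 0.23 at day 5, Gabra4 -0.47 ± 0.24 and Gabrg3 -0.28 ± 0.15. Gabrp and Gabrr1 gave 0.06 ± 0.14 and 0.07 ± 0.11. The 4 GABA-A genes that were not detected were Gabra6, Gabre, Gabrq and Gabrr2, and none of them was well above background in any sample.

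GABA-A genes lie in clusters along the chromosomes, and in some clusters the members did not all move alike. Not every cluster is described here. In the cluster on chromosome 5, in the order Gabrg1, Gabra2, Gabra4 and Gabrb1, the 2 outer genes rose while the 2 inner genes lay at -0.33 and -0.47 and did not pass the threshold. On chromosome 7, Gabra5 rose beside Gabrg3, which did not pass it. On the X chromosome, Gabra3 fell between Gabre and Gabrq, which were not detected. Among nicotinic genes, Chrna5 rose beside Chrna3 and Chrnb4 on chromosome 9, where neither neighbour was detected, and the neighbours Chrnb3 and Chrna6 on chromosome 8 both fell.

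**Figure D3:**
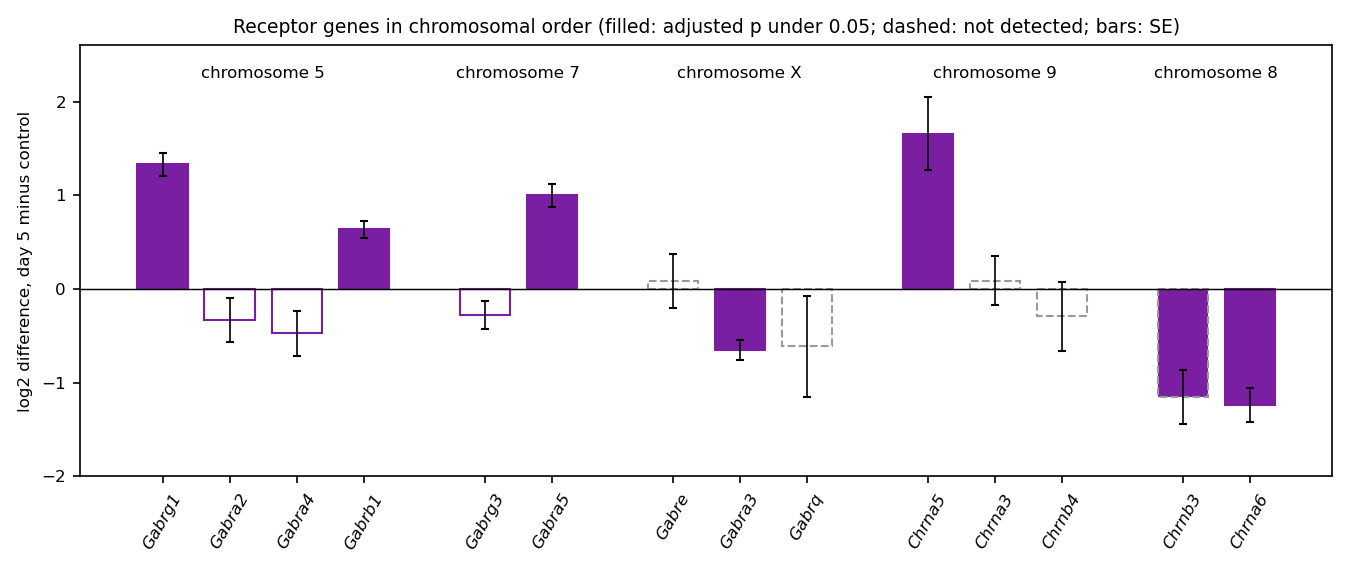
Log2 difference at day 5 from control (bars, with SE, mean of WT and KO) for genes of chromosomal clusters on chromosomes 5, 7, X, 9 and 8, in their order along the chromosome. Filled bars have an adjusted p under 0.05 and dashed outlines mark genes that were not detected. Gabrg1, Gabrb1 and Gabra5 point up beside open bars, and Chrnb3 and Chrna6 both point down.

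Of the 2 GABA-B genes, whose products form 1 G protein-coupled receptor together, Gabbr1 fell at day 5 (-0.60 ± 0.11, adjusted p = 0.000283; all 8 day 5 samples between 11.39 and 11.97, all controls between 12.18 and 12.64). Its other 2 probes that were well above background in all 24 samples gave -0.28 and -0.23 and did not pass the threshold, nor did the mean of all its probes (-0.27, adjusted p = 0.0728). Gabbr2 gave -0.24 ± 0.09 on its brightest probe (adjusted p = 0.0782), while a second probe of it, also well above background in all samples, gave -0.51 at day 2 (adjusted p = 0.00338), and by day 5 it was -0.66 ± 0.12 (adjusted p = 0.000281).

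Among the 4 AMPA subunits, which carry fast excitatory transmission, Gria2 and Gria4 fell at both days. Gria2 encodes GluA2, the subunit that makes AMPA receptors impermeable to calcium. It stood at 8.08, 7.88, 7.79 and 7.47 in WT controls, at 6.83, 6.39, 6.83 and 7.05 at day 2 and at 6.97, 6.65, 7.07 and 6.4 at day 5. In KO it stood at 8.53, 7.86, 8.12 and 7.91 in controls, at 6.14, 7.18, 7.83 and 6.24 at day 2 and at 7.53, 6.54, 7.11 and 7.02 at day 5. Within each genotype lesioned samples and controls did not overlap at either day. The difference was -1.15 ± 0.21 at day 2 (2.21-fold lower, adjusted p = 0.000473), and by day 5 it was -1.04 ± 0.21 (adjusted p = 0.00091). Gria4 gave -0.78 ± 0.14 and -0.77 ± 0.14 (adjusted p = 0.000407 and 0.000325), with its 2 other detected probes between -0.98 and -0.78.

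Gria1 (GluA1) was lower at day 2 only: its WT controls were 8.7, 8.8, 8.74 and 8.67, its WT day 2 samples 8.53, 8.28, 7.96 and 8.27, and its WT day 5 samples 8.71, 8.68, 8.68 and 8.43. KO controls were 8.82, 8.69, 8.65 and 8.72, KO day 2 samples 8.11, 8.7, 8.89 and 7.96, and KO day 5 samples 8.72, 8.81, 8.7 and 8.71. The day 2 difference was -0.39 ± 0.11 (adjusted p = 0.0144; its second probe -0.55, adjusted p = 0.00128; -0.36 with an adjusted p of 0.13 without the 4 controls beside a lesioned sample) and the day 5 difference -0.05 ± 0.11, but the change between the days had an adjusted p of 0.105, so a return to the control level was not shown. Gria3 gave -0.12 ± 0.12 at day 5 on its brightest probe and -0.55 ± 0.09 on another probe (adjusted p = 0.000119). Another probe of it gave -0.44 ± 0.16 (adjusted p = 0.0643).

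Of the 5 kainate subunits 3 fell at both days. Grik1 encodes GluK1, the principal kainate receptor subunit of small sensory neurons, and had the largest fall at day 5 of the 64 genes. WT controls were 11.07, 10.73, 10.92 and 11.28, WT day 2 samples 10.43, 9.69, 9.11 and 10.3, and WT day 5 samples 9.12, 9.63, 9.54 and 9.48. KO controls were 11.1, 10.75, 10.98 and 10.6, KO day 2 samples 9.31, 10.39, 11.04 and 9.66, and KO day 5 samples 9.87, 9.42, 9.49 and 9.46. Every day 5 sample lay below every control. The difference was -0.94 ± 0.21 at day 2 (adjusted p = 0.00309), and by day 5 it was -1.43 ± 0.21 (2.69-fold lower, adjusted p = 4.22e-05), and a second Grik1 probe gave -0.83 and -1.36. Grik4 and Grik5, which encode high-affinity subunits that need a GluK1 to GluK3 partner, fell by 0.63 and 0.40 on the log2 scale at day 5 (SE 0.13 and 0.07, adjusted p = 0.000782 and 0.00027). At day 2 Grik4 gave -0.48 ± 0.13 (adjusted p = 0.00937; 0.135 without the 4 controls beside a lesioned sample) and Grik5 -0.22 ± 0.07 (adjusted p = 0.0314, not past the threshold in 9 of 39 other settings). Grik2 (GluK2) gave 0.16 ± 0.09 at day 5 (adjusted p = 0.219), and Grik3 was not detected.

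**Figure D4:**
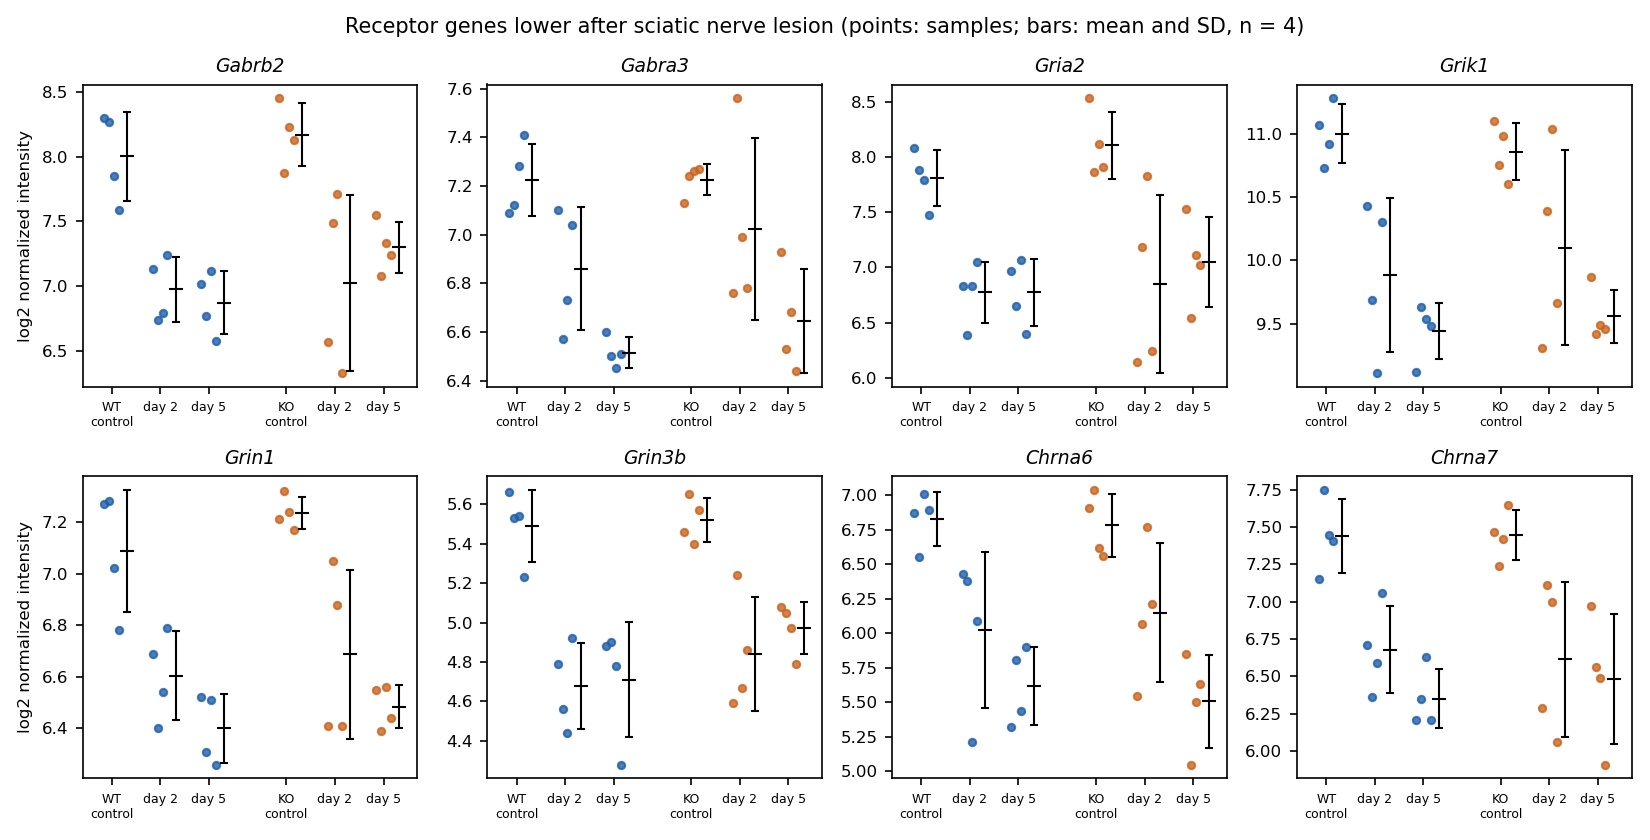
Log2 normalized intensity of 8 genes that were lower after lesion, in each of the 24 samples (points, WT blue, KO orange), with the mean and SD of each group of 4 (black). The group means at day 5 lie below those of the controls in both genotypes, for genes chosen because they were lower, and the vertical axes differ between panels.

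Of the 7 NMDA subunits, Grin1, Grin3a and Grin3b fell at both days. Grin1 encodes GluN1, which every NMDA receptor contains. Its 8 controls lay between 6.78 and 7.32, its day 2 samples between 6.4 and 7.05 and its day 5 samples between 6.26 and 6.56, below all controls. It gave -0.52 ± 0.10 at day 2 (adjusted p = 0.000654), and by day 5 it was -0.72 ± 0.10 (adjusted p = 1.58e-05). Grin3a and Grin3b encode GluN3 subunits, which bind glycine and lower calcium permeability. Grin3a fell further between the days (-0.46 ± 0.09, adjusted p = 0.00437), from -0.32 ± 0.09 to -0.78 ± 0.09 against control, and Grin3b stood at -0.75 ± 0.11 and -0.66 ± 0.11. With the mean of all probes of the gene Grin3a gave 0.15 at day 2 and -0.26 at day 5 and did not pass the threshold at either day, its 2 other probes being well above background in no sample. Its day 2 difference had an adjusted p of 0.0914 without the 4 controls beside a lesioned sample. Grin2c gave -0.52 ± 0.18 at day 5 with an adjusted p of 0.0491, which stayed past the threshold in 14 of 39 other settings. Grin2b and Grin2d gave -0.17 ± 0.15 and -0.10 ± 0.22, and Grin2a was not detected.

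Of the 8 metabotropic glutamate receptors, Grm5 and Grm8 fell at both days and Grm4 at day 5. Grm5 encodes mGluR5, a Gq-coupled receptor, and Grm8 and Grm4 encode Gi-coupled group III receptors. Grm8 lay between 7.83 and 8.43 in controls, between 7.04 and 8.07 at day 2 and between 7.58 and 8.03 at day 5, with differences of -0.74 ± 0.13 (adjusted p = 0.000375) and -0.50 ± 0.13 (adjusted p = 0.00898). Grm5 gave -0.67 ± 0.17 (adjusted p = 0.00704) and -0.56 ± 0.17 (adjusted p = 0.0214, past the threshold in 32 of 39 other settings). With the mean of its 4 probes, 1 of them detected, Grm5 gave -0.26 and -0.14 (adjusted p = 0.37 and 0.685). Grm4 is named although it was not detected by the rule above: it was well above background in 6 of 8 controls, 3 of 8 day 2 and 1 of 8 day 5 samples, and its day 5 difference was -0.97 ± 0.25 (adjusted p = 0.00751). Grm7 gave -0.20 ± 0.10 at day 5 on its brightest probe and -0.39 ± 0.13 on another (adjusted p = 0.0308). Grm2, Grm3 and Grm6 were not detected.

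Nicotinic genes moved in both directions. Chrna1 and Chrna5 rose, Chrna6, Chrna7, Chrna10 and Chrnb3 fell at both days, and Chrna4 fell at day 5. Chrna1 encodes the alpha subunit of the muscle acetylcholine receptor. In WT it stood at 5.71, 5.61, 4.95 and 4.51 in controls, at 6.19, 6.26, 5.59 and 5.82 at day 2 and at 6.98, 6.84, 7.36 and 6.8 at day 5. In KO it stood at 5.73, 5.38, 5.61 and 5.78, at 6.36, 6.24, 6.08 and 6.2, and at 6.99, 7.05, 7.41 and 6.96. Every day 5 sample lay above every day 2 sample and every control. The difference was 0.68 ± 0.15 at day 2 (adjusted p = 0.00262), and by day 5 it was 1.64 ± 0.15 (3.11-fold, adjusted p = 9.81e-08), and day 5 exceeded day 2 by 0.96 ± 0.15 (adjusted p = 0.000851). A dimmer probe, well above background in 6 samples, gave 1.09 ± 0.45 at day 5 (adjusted p = 0.0928), and the mean of both gave 0.41 at day 2 (adjusted p = 0.23). Of the other muscle-type genes, Chrnd and Chrne gave -0.02 ± 0.11 and -0.05 ± 0.15 at day 5. Chrnb1 and Chrng were below the detection rule, and Chrnb1 gave 0.51 ± 0.20 (adjusted p = 0.0834). Beside this rise, none of the 8 skeletal muscle markers passed the threshold at day 2 or day 5. Their summed level (log2) ran from 7.68 to 11.02 in controls and from 7.77 to 13.5 at day 5, and Myog was well above background in no sample. Their part in the Chrna1 values was not tested.

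Chrna5 encodes an accessory subunit that assembles with other alpha and beta subunits. It was well above background in 2 of 8 controls, 7 of 8 day 2 and 8 of 8 day 5 samples. Controls were 3.52, 4.87, 1.07 and 3.02 in WT and 3.89, 3.79, 3.49 and 4.54 in KO, while the day 5 samples were 5.29, 5.03, 5.43 and 4.78 in WT and 4.84, 5.64, 5.15 and 5.36 in KO. The value of 1.07, in WT control replicate 3, was far below all others. The measured difference, with only 2 of 8 controls well above background, was 1.43 ± 0.39 at day 2 (adjusted p = 0.0108), and by day 5 it was 1.66 ± 0.39 (adjusted p = 0.00295). In 39 other settings it stayed past the threshold, but its size ran from 0.32 to 2.1 at day 2 and from 0.38 to 2.54 at day 5. Controls beside a lesioned sample averaged 4.08, against 2.97 in the other controls. The measured difference was 2.01 ± 0.55 in WT at day 5 (adjusted p = 0.017) and 1.32 ± 0.55 in KO (adjusted p = 0.141). Without WT control replicate 3 the value in WT was 1.33 ± 0.44 (adjusted p = 0.0631) beside 1.32 ± 0.40 in KO (adjusted p = 0.0398), and the averaged values were 1.08 at day 2 and 1.32 at day 5 (adjusted p = 0.0138 and 0.00288).

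Chrna6 encodes alpha-6, a subunit of neuronal receptors in sensory and dopaminergic neurons. Its controls lay between 6.55 and 7.04, its day 2 samples between 5.21 and 6.77 and its day 5 samples between 5.05 and 5.9, and it gave -0.72 ± 0.18 (adjusted p = 0.00746) and -1.24 ± 0.18 (2.37-fold lower, adjusted p = 3.78e-05). Chrna7 encodes alpha-7, which forms receptors by itself, and gave -0.79 ± 0.16 (adjusted p = 0.00141) and -1.03 ± 0.16 (adjusted p = 8.79e-05), with all lesioned samples below all controls at both days. Its second probe gave -0.47 and -0.46 (adjusted p = 0.036 and 0.0362). Chrna10, known from inner ear hair cells, did not overlap between controls (5.61 to 6.41) and lesioned samples (4.61 to 5.52) either, with -0.99 ± 0.15 and -0.95 ± 0.15 (adjusted p = 5.76e-05 and 7.1e-05). Its usual partner Chrna9 was not detected.

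Chrna4 gave -0.91 ± 0.20 at day 5 (adjusted p = 0.00218), but a second probe, well above background in 19 samples, gave 0.04 ± 0.25, and the mean of both gave -0.43 (adjusted p = 0.0792). Chrnb2, its common partner, gave -0.30 ± 0.14 (adjusted p = 0.16). Chrnb3, an accessory subunit often found with alpha-6, is named although it was detected in only 9 of 24 samples: these were 7 of 8 controls, 1 of 8 day 2 and 1 of 8 day 5 samples. All its controls lay between 4.85 and 5.53 and all lesioned samples between 1.98 and 4.66. The measured difference, with 7 of 8 samples at each day not well above background, was -1.76 ± 0.29 at day 2 (adjusted p = 0.000158), and by day 5 it was -1.15 ± 0.29 (adjusted p = 0.00606; 0.0616 without the 4 controls beside a lesioned sample). In KO at day 2, where no sample was well above background, it was at least 3.23-fold lower than in KO controls (adjusted p = 0.00832). Such bounds set the mean of the brighter group against, in each dim sample, the higher of its own signal and the lowest signal well above background.

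None of the 4 glycine receptor alpha genes was detected: Glra1 was well above background in 3 of 24 samples and Glra2, Glra3 and Glra4 in none. Of the 21 genes that were not detected, 10 were well above background in no sample. Their differences are not interpreted further, apart from those of Chrnb3 and Grm4. Between day 2 and day 5, 5 of 64 genes changed (3.28% of all genes did): Chrna1, Gabrg1, Gabrb1 and Grin3a, described above, and Gabra6, which was well above background in no sample. No gene had probes called in opposite directions.

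The single samples were set against the controls over the 21 detected genes that were lower at day 5, which were chosen for that difference. Over these genes the median deviation from the mean of the 8 controls was -0.48, -0.95, -0.91 and -0.5 in WT day 2 replicates 1 to 4 and -0.92, -0.28, -0.17 and -0.82 in KO day 2 replicates 1 to 4. At day 5 it was -0.93, -0.84, -0.78 and -1.12 in WT and -0.54, -0.77, -0.75 and -0.82 in KO. KO day 2 replicates 2 and 3 were thus closest to control. Their Sprr1a levels were 13.44 and 12.6, against 13.73 in each of the other two KO day 2 samples, and their sensory neuron markers summed to 19.04 and 19.15, against 18.96 and 19.16. The part of these measures in the spread was not tested. KO day 2 replicate 3 was the only day 2 sample on its slide. All 28 genes called at day 5 had the same sign on all 3 slides, and 17 of the 21 called at day 2 did. These genes were called from the same samples, so equal signs follow largely from that choice and are no separate evidence.

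Taken by genotype, 15 genes changed at day 2 in WT (11% of all genes did) and 24 at day 5 (13.9% of all genes). In KO, 12 changed at day 2 (11.8% of all genes) and 22 at day 5 (12.7% of all genes). At day 2, 11 were called in both genotypes (7.86% of all genes were), and at day 5 21 were (10.5% of all genes). Without KO control replicate 4 the KO counts were 8 and 17. With 4 samples per group single samples decided some of these counts: 9, 8 and 9 genes passed the threshold at day 2 in WT without WT control replicate 3, WT day 2 replicate 2 and WT day 2 replicate 3, 7 and 5 at day 2 in KO without KO day 2 replicates 1 and 4, and 11 at day 5 in KO without KO day 5 replicate 4. Without the 4 controls beside a lesioned sample the counts were 3 and 15 in WT and 2 and 8 in KO.

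The comparison of genotypes asked whether expression in DRGs depended on Nfil3. None of the 64 genes differed between KO and WT in control, at day 2 or at day 5 after adjustment (0.0182% of all genes differed at any of the 3, which is 5 genes), and none had a time*genotype interaction (0% of all genes). Without KO control replicate 4 and without the 4 controls beside a lesioned sample these counts also were 0. Of all genes, 0 differed in control, 4 at day 2 and 3 at day 5. The comparison in controls thus did not call even Nfil3, the deleted gene, and a count of 0 there does not show equal expression. At an unadjusted p under 0.05, limma gave 1, 1 and 3 of the 64 genes in control, at day 2 and at day 5, and 1 for the interaction, where it gave 465, 1044, 651 and 582 of all genes. Detection of a difference was limited by its error: over the 43 detected genes the 95% confidence interval for KO minus WT reached a median of 0.42 to either side at each time, and at day 5 the interval lay between -1 and 1 for 40 of 43. For Gabrg1, Gabra5 and Chrna1 at day 5 KO minus WT was 0.15 (95% interval -0.21 to 0.52), 0.12 (-0.25 to 0.48) and 0.11 (-0.34 to 0.56). For Gabrb2 and Grik1 it was 0.43 (-0.1 to 0.96) and 0.12 (-0.52 to 0.75).

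**Figure D5:**
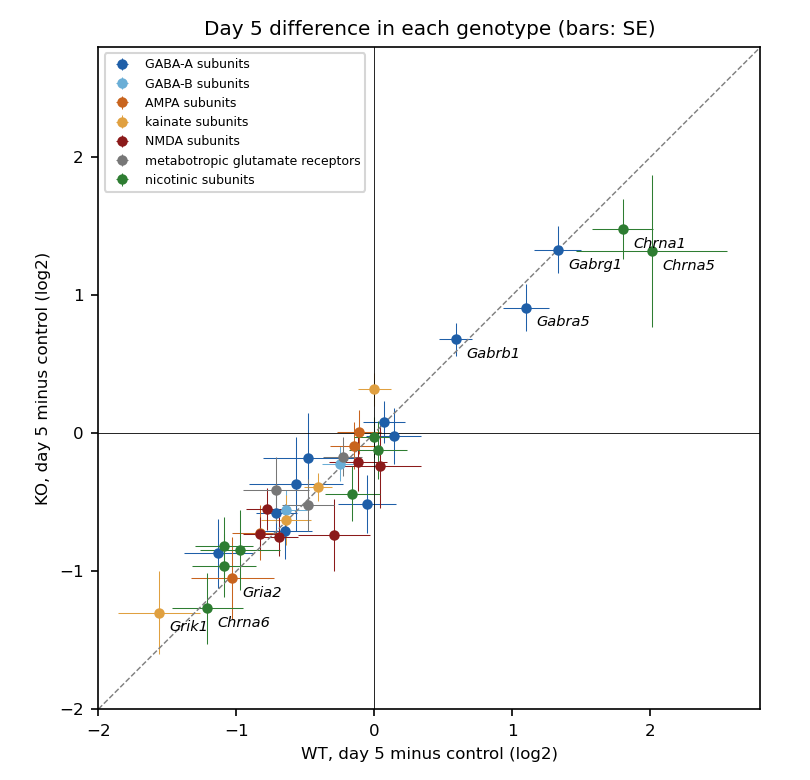
Log2 difference at day 5 from control in WT (horizontal) and in KO (vertical) for 39 of the 43 detected genes, coloured by family, with SE as bars and the line of equality dashed. WT and KO have separate controls, and the 5 genes called higher at day 5 with genotypes averaged, such as Gabrg1 at 1.33 in WT and 1.33 in KO, lie above 0 on both axes.

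Ranked by limma's p-value, the genes nearest to a difference between KO and WT were as follows. In controls they were Chrng (KO minus WT -1.78 ± 0.80), Chrna1 (0.43 ± 0.22) and Gabra5 (0.31 ± 0.17). Chrng was well above background in 2 samples and stood at 7.65 in WT control replicate 4 against 3.69 to 4.25 in the other WT controls, and its value in WT day 5 replicate 2 was missing. At day 2 they included Gabrp (0.35 ± 0.20) and Grin3a (0.21 ± 0.12). At day 5 they were Grik2 (0.32 ± 0.12), Grm3 and Glra2, the last 2 of which were well above background in no sample. The adjusted p was 1 for each gene named here. For the interaction Grik2 and Chrng also had an adjusted p of 1.

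Start sites were examined for letters that bind NFIL3 and factors of the injury response. RefSeq promoters (GRCm38.p6, 250 bases before to 50 after the start) were listed for 46 of the 64 genes, with 54 promoters in all. The letters TTACGTAA or TTATGTAA, bound by NFIL3, occurred on either strand in 1 of the 54 (Gabrr2), and in 1.06% of all 32851 promoters. The cAMP response element TGACGTCA occurred in none of the 54 and in 1.79% of all. The AP-1 site TGANTCA occurred in 3 (Chrna1, Grin3b and Grm8) and in 7.81% of all. No promoter of these genes held more than 1 of the 3 motifs, and a match read on both strands was counted once. Of the genes that rose, Gabrg1, Gabra5 and Chrna1 have 1 listed promoter each. The 250 bases before their starts are shown, with the single AP-1 match, 211 bases before the start of Chrna1, in capitals:
Gabrg1, chr5:70842618-70842867 (minus strand): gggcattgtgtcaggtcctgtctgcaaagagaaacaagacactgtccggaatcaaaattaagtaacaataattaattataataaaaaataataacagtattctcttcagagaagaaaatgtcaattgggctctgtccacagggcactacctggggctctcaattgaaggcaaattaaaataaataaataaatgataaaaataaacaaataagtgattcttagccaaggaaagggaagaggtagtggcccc
Gabra5, chr7:57510060-57510309 (minus strand): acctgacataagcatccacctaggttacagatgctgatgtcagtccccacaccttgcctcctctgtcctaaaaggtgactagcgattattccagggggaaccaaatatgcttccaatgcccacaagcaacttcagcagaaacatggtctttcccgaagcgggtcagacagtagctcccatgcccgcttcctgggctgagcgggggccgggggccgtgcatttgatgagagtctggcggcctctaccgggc
Chrna1, chr2:73580339-73580588 (minus strand): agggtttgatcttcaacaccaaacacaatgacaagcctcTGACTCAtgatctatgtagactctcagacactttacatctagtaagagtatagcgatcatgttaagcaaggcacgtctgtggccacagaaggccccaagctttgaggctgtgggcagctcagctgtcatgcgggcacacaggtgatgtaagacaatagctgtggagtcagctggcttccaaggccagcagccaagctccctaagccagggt
The sequences differ in base composition, with 35.6%, 56.4% and 50.8% G or C, and the upstream 250 bases of Gabrg1 and Gabra5 hold none of the 3 motifs.

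Partner genes of the same pathways moved in both directions. The counts of the partner and marker lists below stand beside the shares over all genes. At day 2, 12.7% of all genes were lower and 9.48% higher, and at day 5 13% were lower and 10.2% higher. The lists were not tested against these shares. Of 22 partners of inhibitory transmission, 6 fell and 1 rose at day 2, and 5 fell and 4 rose at day 5. Lhfpl4, which brings GABA-A receptors to synapses, fell at both days (-0.90 ± 0.11 and -0.94 ± 0.11, adjusted p = 7.65e-06 and 3.26e-06). So did Gphn, the scaffold gephyrin (-0.29 ± 0.06 and -0.32 ± 0.06, adjusted p = 0.00222 and 0.000734), and Glrb, the glycine receptor beta subunit (-0.61 ± 0.14 and -0.50 ± 0.14, adjusted p = 0.0035 and 0.0122). Gad2, a GABA-synthesizing enzyme that was well above background in 12 samples, rose (1.27 ± 0.33 and 1.38 ± 0.33, adjusted p = 0.0073 and 0.00349), and the glycine transporter Slc6a9 and the trafficking protein Gabarap rose at day 5 by 0.49 and 0.32 (adjusted p = 0.00531 and 0.00513).

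Of 38 glutamate partners, 7 fell and 8 rose at day 2, and 7 fell and 6 rose at day 5. Neto1, an auxiliary subunit of kainate and NMDA receptors, rose most (1.13 ± 0.10 and 2.09 ± 0.10, adjusted p = 6.28e-08 and 4.5e-12), in contrast to Grik1, Grik4 and Grin1 above. Glul (glutamine synthetase, an enzyme of satellite glia) rose by 0.78 and 0.64 and the neutral amino acid transporter Slc1a4 by 1.03 and 1.10. The neuronal glutamate transporter Slc1a1 fell (-1.12 ± 0.12 and -0.77 ± 0.12, adjusted p = 6.41e-07 and 4.93e-05), as did the AMPA receptor auxiliary subunits Cacng2 (-0.67 and -0.43) and Cacng5 (-0.67 and -0.44).

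Of the 17 cholinergic partners on the array, 6 fell and none rose at day 2, and 7 fell and 1 rose at day 5. The nicotinic modulators Ly6h and Lypd1 fell at day 5 (-1.32 ± 0.14 and -1.30 ± 0.18, adjusted p = 5.73e-07 and 1.32e-05), as did Ache, acetylcholinesterase (-0.79 ± 0.10, adjusted p = 4.06e-06). Tmem35, a chaperone that nicotinic receptors such as alpha-7 need, was named after its values were seen (-0.93 ± 0.14 and -1.02 ± 0.14, adjusted p = 5.32e-05 and 1.57e-05). Lynx1 alone rose at day 5 (0.20 ± 0.06, adjusted p = 0.027) and was lower at day 2.

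Markers of several cell types moved at the same days. Of 15 sensory neuron markers, 10 fell and 1 rose at day 2 and 8 fell and 1 rose at day 5, and their summed level (log2) ran from 19.24 to 19.5 in controls, 18.96 to 19.18 at day 2 and 18.82 to 19.19 at day 5. All 8 macrophage markers rose at day 5 and 4 at day 2, with a summed level of 10.25 to 11.13 in controls, 10.75 to 11.73 at day 2 and 11.98 to 12.54 at day 5. Of the 6 satellite glia markers 3 fell and 2 rose at day 2, and 2 fell and 2 rose at day 5. Their sums ran from 15.06 to 15.51 in controls, 14.82 to 15.15 at day 2 and 15.08 to 15.39 at day 5. Fabp7 and Glul moved in opposite directions (-0.36 and 0.64 at day 5), so a similar sum does not show unchanged markers. Of the 6 Schwann cell markers 2 rose at day 2 and 1 at day 5. Their sums ran from 16.07 to 16.7 in controls, 16.2 to 17.64 at day 2 and 16.13 to 16.71 at day 5. Of 5 T cell, 5 fibroblast, 4 endothelial and 5 central glia markers, 0, 1, 0 and 1 changed at day 5 and 0, 0, 1 and 1 at day 2. All neuronal, macrophage, satellite glia and Schwann cell markers on the array were detected, so the ganglia held neuronal, glial and macrophage transcripts as labelled. Their part in the differences of the receptor genes was not tested.

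The list counts were also taken without the controls in doubt, a choice made after seeing the data, as was that for Chrna5 above. Without KO control replicate 4, 5 inhibitory partners fell and 1 rose at day 2, and 4 fell and 4 rose at day 5. For glutamate partners these counts were 6 and 6 at day 2 and 5 and 6 at day 5, and those of cholinergic partners, sensory neuron, macrophage and axotomy markers were as with it. Of the satellite glia markers 4 fell and 2 rose at day 2, and 2 fell and 1 rose at day 5. Of the Schwann cell markers 1 rose at day 2 and none passed the threshold at day 5. Without the 4 controls beside a lesioned sample, inhibitory partners had 4 lower and 1 higher at day 2 and 3 lower and 2 higher at day 5. Glutamate partners had 5 and 6, then 6 and 5, cholinergic partners 5 and 0, then 6 and 0, and sensory neuron markers 9 and 1 at both days. Macrophage and axotomy marker counts were as with all controls. Satellite glia markers had 3 lower and 2 higher at day 2 and 1 lower and 1 higher at day 5. No Schwann cell marker passed the threshold at either day.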

How the data were processed

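Single-color log2 expression was measured in 24 DRG samples on 12 two-color Agilent 4x44K arrays of 3 slides, with 2 samples of each group in Cy3 and 2 in Cy5. Per the file headers, the authors extracted the scans with Feature Extraction, and the deposited files hold foreground and local background intensity per spot, unnormalized, with flags for outliers and for signal well above background. No spot was saturated. Following the study's methods, background was corrected by the Edwards method (mean foreground, median background) and the 24 channels were quantile normalized on the log2 scale. Outlier spots were left out (1 member value was then missing) and spots of a probe averaged. In R 4.3.3 with limma 3.58.1 and statmod 1.5.0, 1 mean per group was fitted to all samples with lmFit and eBayes, with Benjamini-Hochberg adjustment and a threshold of 0.05. Labels put samples in groups by title. The number of arrays limits precision, and nothing beyond the statement of independent replicates says that samples of a group came from separate animals, so p-values may measure technical spread only.

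The members and lists were chosen with earlier results of these data known. Named are all members called at day 2 or day 5 (29), the 3 smallest p-values of each KO comparison, and the 3 smallest per direction and partner list; values of other members are given to account for all. The script was tested on simulated data. Alternatives changed the background, normalization, outliers, filter, probe rule, covariates, blocks and variance model, and left out each sample. Some members are not reported here by name, though all are in the counts.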

Additional observations from a re-analysis of the deposited data

Results flagged for a closer look

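In groups of 4, a sample was singled out where its gap to the nearest of the other three exceeded Dixon's critical share of the group's range for 4 samples, which chance gives in about 1 of 20 groups. Over the 29 called genes and 6 groups, 7 of 174 were. Gabbr1 stood at 12.64 in KO control replicate 2, with the others from 12.18 to 12.24. Gabra5 stood at 6.39 in KO day 2 replicate 3, with the others from 6.71 to 6.75. Gabrg1 stood at 8.5 in WT control replicate 4, with the others from 9.09 to 9.21. Gria1 stood at 8.43 in WT day 5 replicate 4 (others 8.68 to 8.71) and at 8.81 in KO day 5 replicate 2 (others 8.7 to 8.72). Grik1 stood at 9.87 in KO day 5 replicate 1 (others 9.42 to 9.49), and Grm4 at 2.59 in WT day 5 replicate 4 (others 3.95 to 4.14).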

How the results depend on the processing

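Of 49 called differences of members, 34 kept direction and call under all 39 alternatives, 1 turned its direction and the others were not past the threshold in 1 or more. Most losses came from the mean of all probes of a gene, which includes probes not above background, lost 10 calls and turned Grin3a at day 2 (0.15), and from Grin2c at day 5. The cause was not tested. Counts of genes past the threshold moved by over 1.5 times in these cases: 5 higher at day 2 with processed signals scaled to the 75th percentile, 3 changed between the days with the mean of all probes, and, without the 4 controls hybridised beside a lesioned sample (an alternative chosen after seeing the data), 3 and 15 changed in WT at day 2 and day 5 and 2 and 8 in KO. Leaving out 1 sample gave 3 to 5 higher at day 2, 8 to 18 changed at day 2 in WT, 5 to 17 at day 2 in KO and 11 to 23 at day 5 in KO. All other counts stayed within 1.5 times, and the counts for genotype and interaction were 0 in every alternative. Over the 15 pairs of groups the deviations of same-numbered samples had correlations from -0.47 to 0.52. All were positive for KO control with KO day 5 (0.01 to 0.26) and with WT day 5 (0.04 to 0.48). With 4 samples per group these values do not settle whether numbers pair samples. With the replicate block 19 genes were lower and 3 higher at day 2 and 22 lower and 5 higher at day 5, and Grin2c at day 5 alone of the 49 lost its call. Probes not well above background limit what can be said of 21 genes.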
